A study of Danio rerio with 6 samples.

Results

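Hox genes encode homeodomain transcription factors that stand in clusters, and their order along a cluster follows the order of the body regions in which they act, from the hindbrain to the tail. Genes with the same number in different clusters descend from 1 ancestral gene and form a paralogue group: low numbers act in the hindbrain and pharyngeal arches, middle numbers in the trunk, and high numbers in the posterior trunk, tail and fins. Zebrafish carry duplicated clusters, written with a final a or b (hoxba and hoxbb, for example). The members described here are all probe sets whose single gene symbol in the platform's probe annotation begins with hoxa, hoxb, hoxc or hoxd. They numbered 59 of 15502 tested probe sets and stood for 42 of 8793 named genes, in 7 clusters. All 59 matched a RefSeq gene of the GRCz12tu assembly by Entrez identifier, and 42 of its 49 protein-coding Hox cluster genes thus had a member. The genes hoxa13a, hoxb1b, hoxb13a, hoxc10a, hoxc12a, hoxc13b and hoxd12a were not analysed here.

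Whole embryos of the wild-type AB strain were dechorionated and pooled for RNA when they were 36 h old, counted from fertilisation. From 24 h on, 1 group was kept in 5 µM 11,12-EET, an epoxide made from arachidonic acid by cytochrome P450 enzymes, and the other in its solvent DMSO. There were 3 arrays per group, described by the submitters as biological replicates, and 25 embryos are stated for each treatment. The p-values set each difference against the spread between these pools. No clutch is named, so whether that spread covers several clutches is not known. In pools of whole embryos, fewer cells of a type and less RNA per cell cannot be told apart. Of 51 marker genes listed for 10 tissues, 35 were measured and 30 of these lay at or above the median level of all probe sets.

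The comparison asks which transcripts differed after 12 h in EET. No Hox probe set passed limma's test, which was fitted over all 15502 probe sets with Benjamini-Hochberg adjustment at 0.05: 0 of 59 were called, against 0% of all probe sets, and the smallest adjusted p of a member was 0.930. Repeated on the 7751 probe sets at or above the median level of 4.81, which held 28 members, the test called 0 of 28, where 0.0774% of that set was called, and the smallest adjusted p of a member was 0.733. At an unadjusted p under 0.05 there were 2 of 59 members (3.39%), against 5.27% of all probe sets, and in the brighter set 1 of 28 (3.57%), against 6.66%. In the brighter set this count lay on the other side of the background when replicate numbers entered the fit. With the replicate number as a block it was 3 of 28 (10.7%), against 9.10%. With a batch term for replicate 3 it was 5 of 28 (17.9%), against 10.01%. Leaving out single arrays could do the same: the count was 3 of 28 (10.7%), against 6.85%, without DMSO replicate 3. Without EET replicate 2 it was 2 of 28 (7.14%), against 4.68%. Without any other single array it stayed under the background. The block also raised the brighter probe sets called from 6 to 12, none of them a member, and the smallest adjusted p of a member was then 0.461 by limma. Dim probe sets, those under the median level, varied far more between replicates, so the 2 classes are kept apart below.

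For the brighter members the intervals of the fit without a block limit the difference in probe set signal. Hybridisation controls rose by 0.83 per doubling of concentration, so a fold limit on signal is not the same limit on transcript. The 95% interval of EET minus DMSO, taken from limma's fit to the brighter probe sets, lay within 1.5-fold in either direction for 26 of the 28 members, against 88.6% of the brighter probe sets. For all 28 it lay within 2-fold, against 99.2%. The 2 members with wider limits were hoxa2b, whose interval ran from 0.03 to 0.64 on the log2 scale, and hoxc4a, from -0.61 to 0.09. From the difference to either end, the interval measured 0.21 to 0.46. The intervals are for single probe sets and are not adjusted for the number of members. Of the 31 dimmer members 20 had an interval within 2-fold in the fit over all probe sets, against 40.3% of the dimmer probe sets and 69% of all probe sets.

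**Figure D1:**
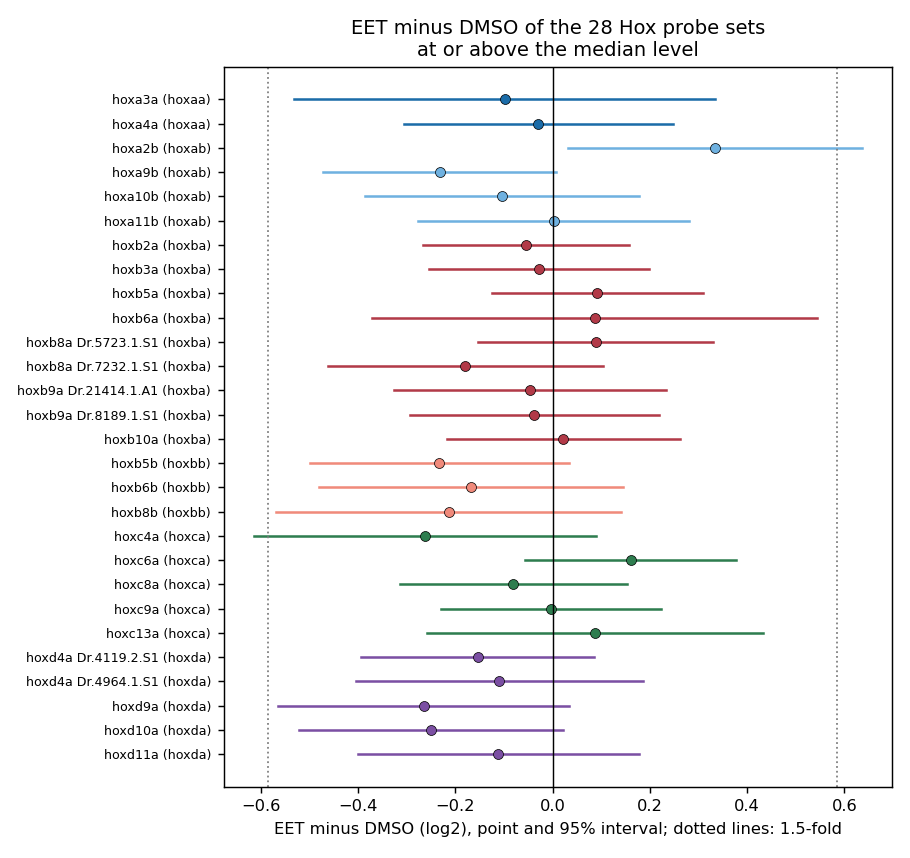
Log2 difference EET minus DMSO (x axis) of the 28 Hox probe sets at or above the median level, ordered by cluster and paralogue number. Points are differences of group means over 3 arrays each, bars the 95% intervals of limma's fit, dotted lines mark 1.5-fold; all intervals but that of hoxa2b include 0, and those of hoxa2b and hoxc4a pass a dotted line.

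Most members lay slightly on the lower side in EET. By group mean 40 of the 59 were lower (67.8%) and 19 higher, where 50.5% of all probe sets were lower. Among the brighter members 20 of 28 were lower (71.4%), against 50.1%. The median difference of the 59 was -0.07 on the log2 scale, 4.97% lower, beside a median of -0.002 over all probe sets. With log2(2^value + 32), which compresses low levels, it was -0.03. The median deviation of the members from their own means was 0.05, 0.03 and 0.05 in DMSO replicates 1, 2 and 3, and -0.06, -0.01 and -0.03 in the EET arrays. The groups thus did not overlap in this median. The members share arrays and embryos, so these counts are not independent observations and carry no test. The actin controls of RNA integrity also lay apart: their 3' end exceeded their 5' end by 1.74 to 2.01 in the DMSO arrays and by 2.14 to 2.30 in the EET arrays. For GAPDH this excess overlapped, at 0.88 to 1.02 with DMSO and 0.94 to 1.27 with EET. Of the 35 measured tissue markers 16 were on the lower and 19 on the higher side, and 0 were called. In 2 (5.71%, against 11.7% of all probe sets) the groups were apart, the muscle genes ckma at -0.19 and myog at 0.33. Summed over each list as 2^value, 9 of the 10 marker lists overlapped between the groups. The epidermis list did not, at 9214 to 9695 in DMSO and 8246 to 9126 in EET, with 4 of its 5 genes on the lower side and a median difference of -0.10. Taken singly, each of the 5 overlapped between the groups, and such a sum is weighted to its brightest gene, krt4, at a level of 12.67. The part of the actin controls and of the epidermis markers in the result was not tested. The arrays of replicate 3, in both groups, were set off from the others in a principal component analysis. The median difference was -0.07 in the replicate 3 pair and -0.09 in the other 4 arrays.

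**Figure D2:**
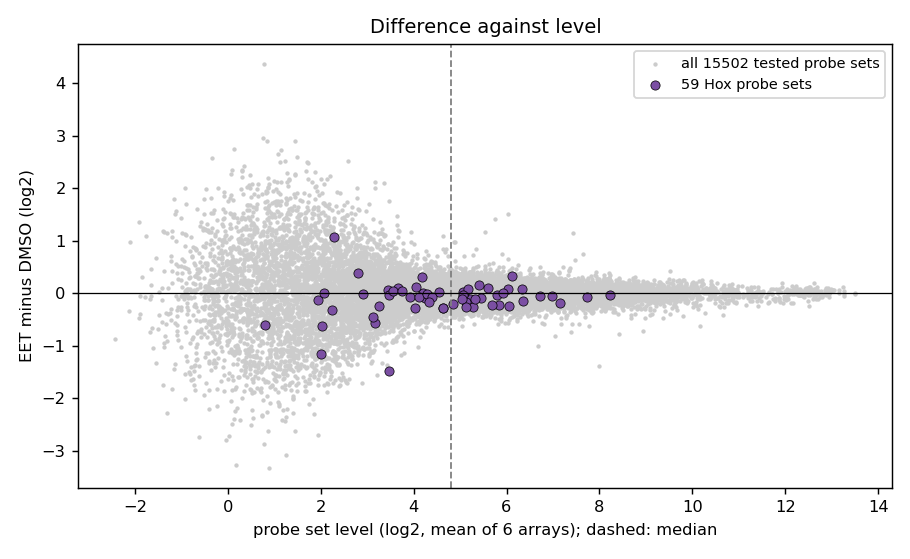
Log2 difference EET minus DMSO (y axis) against the mean level over 6 arrays (x axis, log2) for all 15502 tested probe sets in grey and the 59 Hox probe sets in colour. Above the median level, the dashed line at 4.81, the Hox points lie between -0.27 and 0.33; below it they spread from -1.48 to 1.06, within the wider grey cloud there.

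In 10 of the 59 members (16.9%) the values of the 2 groups did not overlap, against 11.7% of all probe sets. Of these, 7 were lower in EET (11.9%, against 5.91%) and 3 higher (5.08%, against 5.81%). Among the brighter members 6 of 28 (21.4%) were apart, against 13%. On the lower side were 4 of them, hoxa9b, hoxb5b, hoxd9a and hoxd10a (14.3%, against 6.77%), and on the higher side 2, hoxa2b and hoxc6a (7.14%, against 6.27%). The dimmer ones were hoxa13b, hoxc3a and a probe set of hoxa3a on the lower side and a probe set of hoxc8a on the higher. The values of each are given with its paralogue group. After median centring 5 of the 28 brighter members were apart, and after quantile normalisation 6.

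**Figure D3:**
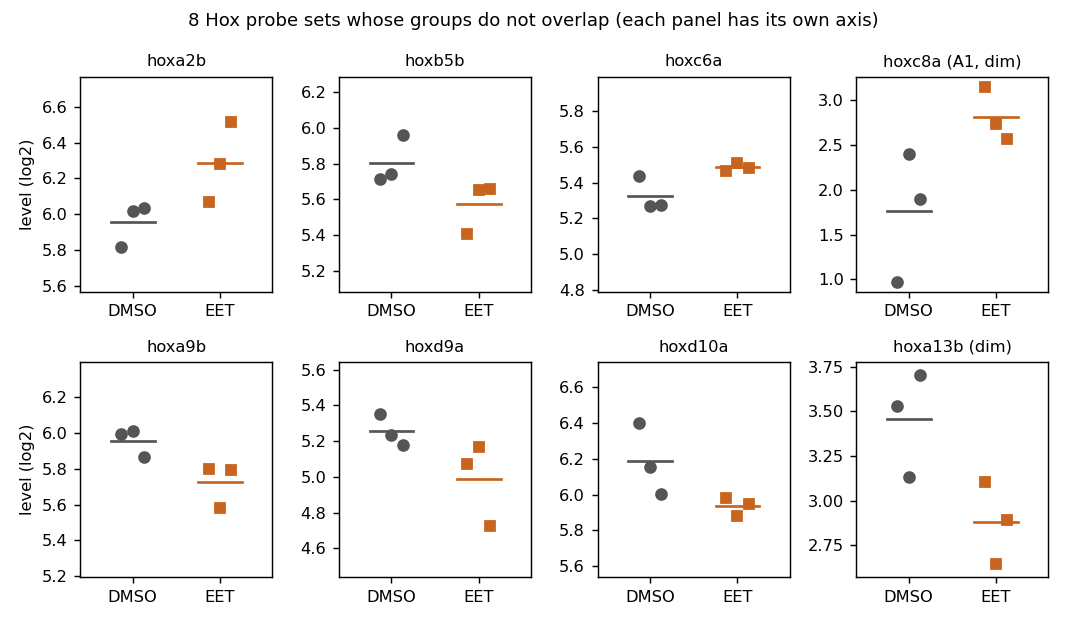
Levels (y axis, log2, own axis per panel) of 8 of the 10 Hox probe sets without overlap in the 3 DMSO and 3 EET arrays; points are arrays in the order of their replicate number, lines are group means. Among them hoxa2b, hoxc6a and the dim hoxc8a probe set were higher in EET, and hoxb5b, hoxa9b, hoxd9a, hoxd10a and the dim hoxa13b lower; none passed the adjusted test.

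Levels are given as log2 probe set values. Probe sets of different genes bind their targets with different strength, so a higher value in one gene than in another does not show more transcript, and the levels are a description by paralogue group. The 59 members ran from 0.80 to 8.22 with a median of 4.63. At or above the median level of the array were 0 of 3 members of paralogue group 1, 2 of 3 of group 2, 2 of 6 of group 3, 4 of 5 of group 4, 2 of 4 of group 5, 3 of 4 of group 6, 0 of 2 of group 7, 4 of 8 of group 8, 5 of 7 of group 9, 3 of 6 of group 10, 2 of 7 of group 11, 0 of 1 of group 12 and 1 of 3 of group 13. By cluster the counts were 2 of 8 in hoxaa, 4 of 6 in hoxab, 9 of 17 in hoxba, 3 of 4 in hoxbb, 5 of 13 in hoxca, 0 of 3 in hoxcb and 5 of 8 in hoxda. Probe sets of middle and of posterior paralogue groups were thus found on both sides of the array's median, and in groups 1, 7 and 12 and in the hoxcb cluster none reached it.

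**Figure D4:**
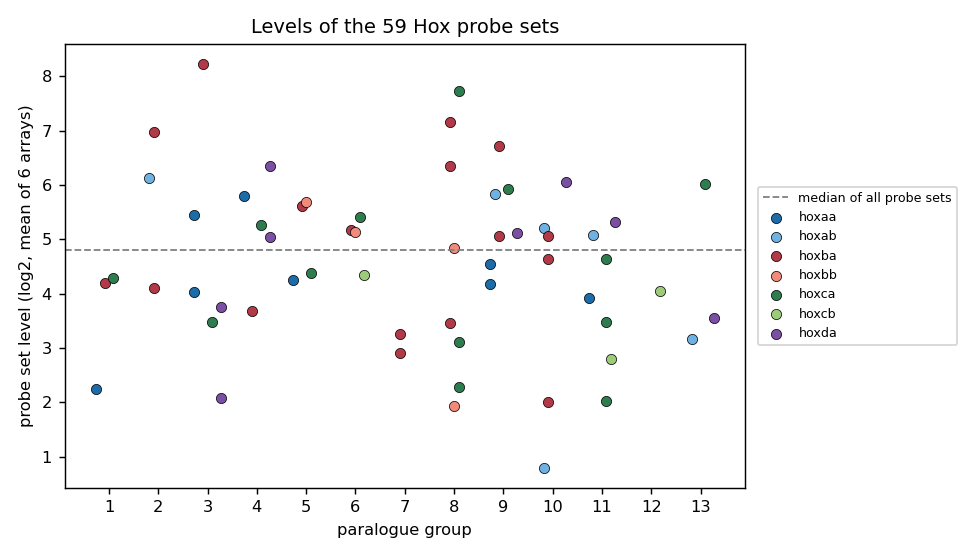
Mean level over 6 arrays (y axis, log2) of the 59 Hox probe sets by paralogue group (x axis), coloured by cluster; the dashed line is the median of all probe sets at 4.81. The values run from 0.80 for a probe set of hoxa10b to 8.22 for hoxb3a, and paralogue groups 2 to 6, 8 to 11 and 13 have members on both sides of the line.

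The hindbrain and arch genes of paralogue groups 1 to 3 had 12 probe sets. Of the group 1 genes, hoxb1a gives the fourth hindbrain segment its identity. Its level was 4.04, 4.28 and 4.27 in DMSO and 4.06, 4.03 and 4.51 in EET, a difference of 0.00 ± 0.17 (SE). For hoxc1a the level was 4.39, 4.38 and 4.10 in DMSO and 4.10, 4.57 and 4.19 in EET, and hoxa1a was dim and scattered from 0.66 to 3.16. The groups overlapped in all 3 group 1 genes.

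Of paralogue group 2, hoxa2b selects the identity of the second pharyngeal arch, from which the jaw support arises. Its level was 5.82, 6.02 and 6.03 in DMSO and 6.07, 6.28 and 6.52 in EET. Every EET array was above every DMSO array, but by a narrow gap. The difference of 0.33 ± 0.13 (SE) was the largest positive one among the brighter members. Its unadjusted p was 0.0345 and its adjusted p 0.733 by limma in the brighter set. The difference was 0.48 in the replicate 3 pair and 0.26 in the other 4 arrays. The other gene of the group, hoxb2a, read 7.05, 6.99 and 6.95 in DMSO and 6.94, 6.88 and 7.01 in EET at its brighter probe set. These values overlapped, with a difference of -0.06 ± 0.09, and the dimmer probe set of hoxb2a differed by -0.07.

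Paralogue group 3 acts in the caudal hindbrain and the third and later arches. The level of hoxb3a was 8.32, 8.18 and 8.22 in DMSO and 8.11, 8.21 and 8.31 in EET. The groups overlapped, and the difference was -0.03 with a 95% interval from -0.25 to 0.20 in the brighter set. The brighter probe set of hoxa3a differed by -0.10 and overlapped. Its dimmer one read 4.08, 4.22 and 4.20 in DMSO and 3.999, 3.99 and 3.69 in EET and was apart by a difference of -0.28 ± 0.13. For hoxc3a the level was 4.85, 3.96 and 3.86 in DMSO and 0.89, 3.72 and 3.61 in EET. Its difference of -1.48 ± 0.85 was the largest negative one of all members, and its size rested on EET replicate 1. In the replicate 3 pair the difference was -0.24, and EET replicates 2 and 3 were also below every DMSO array. The 2 probe sets of hoxd3a differed by 0.01 and 0.05.

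The trunk genes of paralogue groups 4 to 8 had 23 probe sets. Group 4 genes mark the border of hindbrain and spinal cord and respond to retinoic acid, and in mouse Hoxb4 is known for expanding blood stem cells. The zebrafish hoxb4a was dim, at 3.84, 3.60 and 3.43 in DMSO and 3.60, 3.64 and 3.94 in EET, with overlapping groups and a difference of 0.11 ± 0.16. The brighter probe set of hoxd4a read 6.38, 6.34 and 6.57 in DMSO and 6.19, 6.36 and 6.28 in EET, a difference of -0.15 ± 0.11. Its other probe set differed by -0.11, hoxa4a by -0.03 and hoxc4a by -0.26. All 4 brighter probe sets of group 4 were thus on the lower side, and all overlapped between the groups.

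Of paralogue group 5, hoxb5b limits the size of the heart field in zebrafish. Its level was 5.71, 5.74 and 5.96 in DMSO and 5.41, 5.65 and 5.66 in EET. Every EET array was below every DMSO array, at a difference of -0.23 ± 0.12 (unadjusted p = 0.0787 by limma in the brighter set). The duplicate hoxb5a lay on the other side, at 5.47, 5.60 and 5.62 in DMSO and 5.60, 5.68 and 5.68 in EET, a difference of 0.09 ± 0.10 with overlap. The dimmer hoxa5a and hoxc5a differed by -0.10 and -0.06.

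Paralogue group 6 marks the anterior trunk, and Hoxc6 in mouse the motor neurons of the forelimb level. The level of hoxc6a was 5.44, 5.27 and 5.27 in DMSO and 5.47, 5.51 and 5.49 in EET. The EET arrays were all higher but by a narrow gap, with a difference of 0.16 ± 0.10. For hoxb6a the difference was 0.09, for hoxb6b -0.17 and for the dimmer hoxc6b -0.17, all with overlap. The single group 7 gene, hoxb7a, which restored blood formation in cdx4 mutant zebrafish when supplied, was dim at both probe sets. The brighter of the 2 read 3.33, 3.39 and 3.43 in DMSO and 3.34, 2.77 and 3.33 in EET, so that its difference of -0.24 ± 0.18 rested on EET replicate 2.

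Paralogue group 8 acts in the trunk and its spinal cord. The brightest probe set of hoxc8a read 7.73, 7.84 and 7.77 in DMSO and 7.57, 7.82 and 7.69 in EET, overlapping with a difference of -0.08 ± 0.10. A dim hoxc8a probe set read 0.97, 2.40 and 1.90 in DMSO and 3.15, 2.74 and 2.57 in EET, a difference of 1.06 ± 0.40 (unadjusted p = 0.0413, adjusted p = 0.930 by limma). Without DMSO replicate 1 the difference was 0.67. Its unadjusted p by limma was 0.0878 with the replicate block and 0.0678 with a batch term for replicate 3. The third hoxc8a probe set, designed on the same sequence as this dim one, differed by -0.46. The 3 probe sets of this gene thus did not share a direction. Nor did the 2 brighter ones of hoxb8a. One read 6.14, 6.37 and 6.38 in DMSO and 6.32, 6.39 and 6.46 in EET (0.09 ± 0.11), and its name ends in s_at, which marks probes shared by several transcripts. The other read 7.22, 7.16 and 7.35 in DMSO and 7.28, 6.88 and 7.03 in EET (-0.18 ± 0.12), and both overlapped. The brighter probe set of the duplicate hoxb8b differed by -0.21 ± 0.16.

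The posterior genes of paralogue groups 9 to 13 had 24 probe sets, of which 11 were in the brighter class. Group 9 genes pattern the posterior trunk, and hoxa9a is also known for restoring blood formation in cdx4 mutant zebrafish. Both hoxa9a probe sets were dim and overlapped, with differences of 0.02 ± 0.18 and 0.30 ± 0.24. Its duplicate hoxa9b read 5.99, 6.01 and 5.86 in DMSO and 5.80, 5.58 and 5.79 in EET. Every EET array was lower, at -0.23 ± 0.11 (unadjusted p = 0.0552 by limma in the brighter set). For hoxd9a the level was 5.35, 5.24 and 5.18 in DMSO and 5.07, 5.17 and 4.73 in EET, a difference of -0.27 ± 0.13 with a narrow gap between the groups. The differences of both genes moved with the arrays of replicate 3. For hoxa9b the replicate 3 pair gave -0.07 and the other 4 arrays -0.31, and for hoxd9a they gave -0.45 and -0.17. Without EET replicate 3 hoxd9a was at -0.13. The other group 9 genes differed by less: hoxc9a by -0.003, with an interval from -0.23 to 0.22. The brighter probe set of hoxb9a read 6.74, 6.74 and 6.77 in DMSO and 6.94, 6.50 and 6.66 in EET, and its probe sets differed by -0.05 and -0.04.

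In mouse, paralogue group 10 sets the lumbar level. The level of hoxd10a was 6.40, 6.16 and 6.00 in DMSO and 5.98, 5.88 and 5.95 in EET. The EET arrays were all lower but by a narrow gap, at -0.25 ± 0.12 (unadjusted p = 0.066 by limma in the brighter set). The difference was -0.05 in the replicate 3 pair and -0.35 in the other 4 arrays. The brighter probe sets of hoxa10b and hoxb10a differed by -0.10 and 0.02.

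Groups 11 to 13 act in the tail and the outer fin. The level of hoxd11a was 5.39, 5.40 and 5.34 in DMSO and 5.37, 5.00 and 5.42 in EET, overlapping at -0.11 ± 0.13, and hoxa11b differed by 0.002. The dimmer probe sets of hoxa11a, hoxc11a and hoxc11b differed by -0.63 to 0.39. The group 12 gene hoxc12b read 3.90, 4.11 and 3.95 in DMSO and 3.84, 4.17 and 4.31 in EET. In zebrafish the group 13 genes of the hoxa and hoxd clusters are needed to form fin rays. Of group 13, 3 genes were measured: hoxa13b, hoxd13a and hoxc13a. The level of hoxa13b was 3.53, 3.13 and 3.70 in DMSO and 3.10, 2.65 and 2.89 in EET, apart by a narrow gap. Its difference of -0.57 ± 0.20 had the smallest unadjusted p of all members in the main fit, 0.0334, with an adjusted p of 0.930 by limma, and it was dim in both groups. The unadjusted p by limma was 0.0179 with the replicate block and 0.0721 with log2(2^value + 32). With trend and robust settings it was 0.106, where hoxa2b had 0.0337. Neither other member of group 13 was on the lower side: hoxd13a differed by 0.04 ± 0.32. The brighter hoxc13a read 6.15, 6.12 and 5.66 in DMSO and 6.24, 6.02 and 5.94 in EET, a difference of 0.09 ± 0.15.

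Position along the body axis was set against the difference. Over the 28 brighter members Spearman's rho between paralogue number and difference was -0.06 and Pearson's r -0.13, as a description over probe sets that share arrays and clusters. The median difference of the brighter members was -0.04 in groups 1 to 3, -0.11 in groups 4 to 8 and -0.05 in groups 9 to 13. These medians depended on single arrays. With 1 array left out they ran from -0.08 to 0.06 in groups 1 to 3, from -0.14 to -0.08 in groups 4 to 8 and from -0.17 to -0.03 in groups 9 to 13. Without EET replicate 1 groups 1 to 3 turned to 0.06 and groups 9 to 13 were at -0.17, and without DMSO replicate 2 groups 9 to 13 were at -0.10. The order of the regions was thus not stable. The median deviation of the brighter members from their own means was also taken by region. It overlapped between the groups in paralogue groups 1 to 3 and in groups 4 to 8. In groups 4 to 8 it was 0.05 in EET replicate 2, against 0.03, 0.03 and 0.04 in DMSO replicates 1, 2 and 3. In groups 9 to 13 it did not overlap. By cluster, the 3 brighter members of hoxbb and the 5 of hoxda were all on the lower side, with medians of -0.21 and -0.15, and the 9 of hoxba split into 5 lower and 4 higher, with a median of -0.03. None of these members passed the test, and the differences between clusters or groups were not tested.

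Of the 42 genes 13 had several probe sets, and in 10 of these they shared the sign of their difference. Several members pair on 1 design sequence: in the array maker's naming the letters S and A tell the orientation of the probes to that sequence, which could not be checked here without probe sequences. In 8 genes an S1 and an A1 probe set came from the same sequence. The S1 members had an SD between replicates of 0.11 to 0.41 and the A1 members of 0.24 to 1.71, larger in 8 of 8 pairs. The A1 members had mean levels of 0.80 to 3.46, and 0 of 8 reached the median level of the array, while 4 of 8 S1 members did. The A1 probe set of hoxa10b, for example, read 2.76, -0.75 and 1.32 in DMSO and 1.93, -1.32 and 0.87 in EET, and its S1 partner 5.45, 5.13 and 5.21 in DMSO and 5.28, 5.20 and 4.99 in EET. The dim hoxc8a probe set that differed by 1.06 is also an A1 member, and its S1 partner differed by -0.46. Of the 8 A members outside these pairs 4 were in the brighter class, among them hoxc8a at 7.74 and hoxb9a at 6.72.

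**Figure D5:**
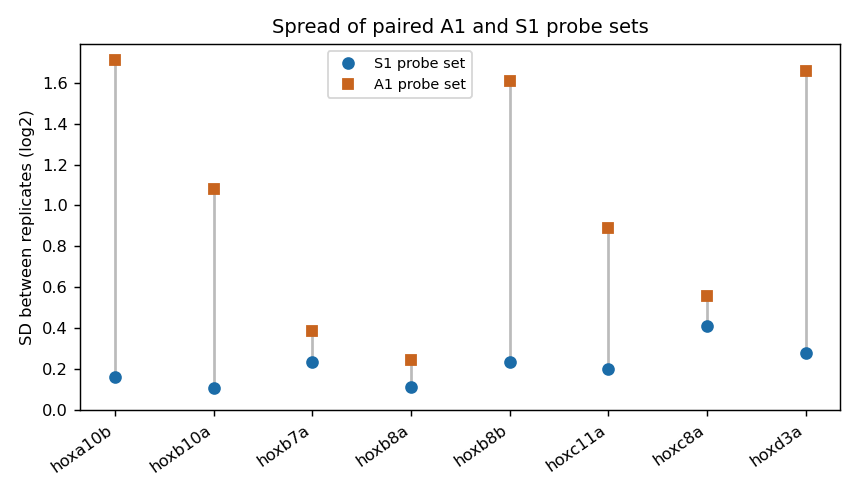
SD between replicates (y axis, log2, pooled over the 2 groups of 3 arrays) of the S1 and A1 probe sets designed on the same sequence, for 8 Hox genes (x axis). The A1 point lies above the S1 point in every pair, from 0.24 for hoxb8a to 1.71 for hoxa10b.

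Neighbouring Hox genes can overlap, so a probe set may read a transcript of more than its own gene. In the RefSeq annotation of GRCz12tu the span of hoxb3a overlaps those of hoxb4a, hoxb5a and hoxb6a, hoxa3a those of hoxa4a and hoxa5a, and hoxd3a that of hoxd4a. The span of hoxc3a overlaps hoxc4a, hoxc5a, hoxc6a, hoxc8a and hoxc9a, and that of the unmeasured hoxb1b overlaps hoxb5b and hoxb6b. Which transcripts the probes bind was not examined, so whether these overlaps affect the values is not known.

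Genes that work with Hox proteins or control them were read in the fit over all probe sets, which also gives their SEs, by the probe set of each gene with the highest mean, and 0 of them passed it. Pbx, Meis and Pknox proteins bind DNA together with Hox proteins. The 12 measured genes had a median difference of -0.01, 5 on the higher and 7 on the lower side, and in 3 the groups did not overlap (25%, against 11.7% of all probe sets). The level of meis1a was 6.65, 6.63 and 6.58 in DMSO and 6.38, 6.52 and 6.40 in EET (-0.19 ± 0.09). For meis1b the difference was -0.16 ± 0.10 and for pbx1a 0.18 ± 0.09. Of 26 measured genes that act upstream, such as retinoic acid enzymes and receptors and cdx genes, 12 lay on the higher and 14 on the lower side (median -0.03), and in 0 the groups were apart. Only 9 of the 26 were at or above the median level of the array, so most were dim. The retinoic acid synthesis gene aldh1a2 differed by 0.07 ± 0.13, the breakdown enzyme gene cyp26a1 by -0.05 ± 0.16 and cdx4 by 0.16 ± 0.35. The retinoid receptor gene rxrab was dim, at 0.18, 2.42 and -0.01 in DMSO and 3.20, 2.39 and 3.06 in EET (2.02 ± 0.71, unadjusted p = 0.0327), with overlap. Of 19 measured chromatin regulators of the Polycomb and Trithorax families and their partners, 8 lay on the higher and 11 on the lower side (median -0.03).

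The list of ParaHox and other homeobox genes had 10 measured, 6 higher and 4 lower. Among them en2b, a gene of the midbrain and hindbrain border, read 5.20, 5.34 and 5.48 in DMSO and 5.66, 5.79 and 5.71 in EET, apart at 0.38 ± 0.11 (unadjusted p = 0.0190, adjusted p = 0.930 by limma). A list of genes of Hox expressing regions had 20 measured, 11 higher and 9 lower (median 0.02), and in 4 the groups were apart (20%, against 11.7% of all probe sets), all 4 on the lower side, where 5.91% of all probe sets were. Of these 4, 3 were the fin fold genes and1, and2 and and3, which were put in the list with their values already known. The share of 20% thus rests on that choice and is not a finding about the list. The other gene was pax2a, at -0.18. The fin fold genes differed by -0.72, -1.38 and -0.999, and and2 was called in the brighter set (adjusted p = 0.00993 by limma). The level of and2 was 8.70, 8.78 and 8.55 in DMSO and 7.46, 7.28 and 7.13 in EET, so that the groups were far apart, a wider gap than in any brighter Hox member.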

How the data were processed

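Each pool's biotin-labelled RNA went on 1 Affymetrix zebrafish array, as the labels' protocols state. The deposited values are log2 levels per probe set. The authors' background correction, probe summary and scaling are not given in the sources read. Base 2 was inferred from the highest value of 13.63, which as a natural log would exceed the scanner's 65535. Hybridisation controls rose by 0.83 per doubling of concentration. This lies between 0.69 for a natural log and 1 for base 2, so the rise does not settle the base. No detection calls were used. Of 15617 probe sets 115 controls were left out.

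Array medians were 4.81 to 4.82 and arrays correlated at 0.943 to 0.957; the number of arrays limits the precision. limma 3.58.1 in R 4.3.3 (lmFit, eBayes, 2-sided, no covariates) compared EET with DMSO, with Benjamini-Hochberg adjustment over 15502 probe sets, and again over the 7751 at or above the median. SEs and p-values of brighter members come from the second fit where the text says so or the member is in that class, others from the first.

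In 10 simulations with 200 changed probe sets, tested on simulated data for this comparison, 95.7% of 2-fold changes were recovered among 7751 brighter probe sets and 29.7% among all 15502. In the data themselves 6 and 0 were called. The adjustment is stricter where fewer probe sets change, so these shares may be too high for the data. Among the brighter probe sets and3, at -0.999, was not called (adjusted p = 0.122 by limma). The labels do not say that replicate numbers mark a shared clutch or day. With every probe set included, the deviations of arrays sharing a number had correlations of 0.04 (replicate 1), 0.06 (replicate 2) and 0.15 (replicate 3). In the brighter class the values were 0.18, 0.24 and 0.55 in that order. Its Hox members gave 0.27, -0.11 and 0.47. Arrays with different numbers were not compared in this way, and the replicate 3 arrays of both groups were set off from the rest. Pairing apart from that shift was thus not tested. The fits without the block were kept. Blocked values are given for the counts of brighter members and of called probe sets and for the smallest adjusted p. They are also given for the unadjusted p of hoxa13b and of the dim hoxc8a probe set. Other p-values and all intervals of single members come from fits without it.

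Members, lists and tests were chosen with earlier results of these data known. Every array's value is given for members with an unadjusted p under 0.05, brighter members without overlap, the highest member of each paralogue group, and brighter probe sets of 1 gene that differ in sign. Values of hoxb1a, hoxa3a, hoxb4a, hoxb5a, hoxc3a, hoxa10b, meis1a and ash2l were added after they were seen. Alternatives were quantile normalisation, median centring, log2(2^value + 32), trend and robust settings, filters, a replicate block, a batch term for replicate 3, both of its arrays left out, each array left out, and 1 value per gene.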

Additional observations from a re-analysis of the deposited data

How the results depend on the processing

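No Hox probe set was called under any alternative run, over all probe sets or among the brighter ones. Over all probe sets, where 0 were called, 1 was called after median centring, 2 with log2(2^value + 32) and 3 with trend and robust. Among the brighter ones, where 6 were called, 12 were called with the replicate block, 12 with a batch term for replicate 3, 10 with trend and robust, and 0 to 6 with 1 array left out (0 without DMSO replicate 1 or EET replicate 2, 1 without DMSO replicate 2 or EET replicate 1, 2 without DMSO replicate 3). The smallest adjusted p of a brighter member was 0.378, for hoxa2b with the batch term. With the replicate block it was 0.461. The median Hox difference of -0.07 was -0.027 with log2(2^value + 32) and ran from -0.104 to -0.058 with 1 array left out. Of 260 recomputed differences of the 20 named members, 249 kept their sign and 11 did not: hoxc13a was -0.0088 without both replicate 3 arrays, and with 1 array left out the differences ran from -0.077 to 0.020 for hoxb3a, -0.166 to 0.051 for hoxb9a, -0.150 to 0.088 for hoxc1a, -0.072 to 0.173 for hoxc13a and -0.191 to 0.022 for hoxd11a. The 260 include the trend and robust settings, the replicate block and the batch term. These leave a difference of group means unchanged in this balanced design, so no sign could change there. The cause of the changes was not tested. Of the members that changed sign, hoxc1a was dim, and hoxb3a, hoxb9a, hoxc13a and hoxd11a were in the brighter class. The dimmer members varied more between replicates, with a median SD of 0.26 against 0.15 in the brighter ones.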

Other observations

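The dim A1 probe sets of hoxd3a and hoxb8b, singled out after their values were seen, had nearly the same values on each array. The hoxd3a probe set read 3.34, 0.39 and 2.48 in DMSO and 3.45, 2.75 and 0.05 in EET. The hoxb8b probe set read 3.15, 0.19 and 2.67 in DMSO and 2.96, 2.65 and 0.00 in EET. Both were lowest in DMSO replicate 2 and EET replicate 3, while their S1 partners ran from 3.33 to 3.99 for hoxd3a and from 4.48 to 5.13 for hoxb8b.

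Among the 19 chromatin regulators the groups were apart in 2 (10.5%, against 11.7% of all probe sets), so this count is near the background. One was ash2l, a subunit of the Trithorax type methyltransferase complexes, which read 7.91, 8.21 and 7.85 in DMSO and 7.83, 7.67 and 7.41 in EET, apart at a difference of -0.35 ± 0.16. The other, kmt2e, was apart on the higher side at 0.13 ± 0.10. Neither passed the test.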
